A study of Mus musculus with 6 samples.

Results

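The NF-kappa B subunit and inhibitor genes were followed across 6 Affymetrix mouse arrays of Th2 cells. The group holds 10 listed genes, namely the subunit genes Nfkb1, Nfkb2, Rel and Relb, the I kappa B family genes Nfkbia, Nfkbib, Nfkbid, Nfkbie and Nfkbiz, and the deubiquitinase gene Tnfaip3. Every probe set whose annotation named 1 of these genes alone was taken, which gave 19 of 45101 probe sets and 9 of the 10 genes, out of 18194 genes named in this way. Nfkb1 had no such probe set and was not analysed here. The arrays held RNA of splenic CD4 T cells of young adult C57BL/6 mice, first stimulated with anti-TCR and anti-CD28 mAb in a 5-day Th2 culture that held IL-2 at 25 U/ml together with IL-4 at 100 U/ml. Th2-4th cells, called fully developed, went on from such a culture through cycles of 2 days without added cytokines and 5 days with anti-TCR mAb, IL-2 and a blocking anti-IL-4 mAb, and Th2-1st cells, called effector Th2 cells, had the first culture alone. Both were transfected with siRNA by electroporation and, 24 h later, were left unstimulated or were restimulated for 4 h on immobilized anti-TCR mAb. In each culture, 1 array held GATA3 siRNA cells after stimulation, 1 held control siRNA cells after stimulation and 1 held control siRNA cells without stimulation. Unstimulated cells with GATA3 siRNA and cells without siRNA were not analysed here. The cultures thus differ in age, in the number of rounds of anti-TCR stimulation and rest, and in whether IL-4 was blocked. These differences cannot be told apart, and the number of mice behind an array is not given in the sources used here. Each condition was measured on 1 array, so the ratios below carry no replicate error and no p-values are given.

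NF-kappa B is a family of dimeric transcription factors that wait in the cytoplasm of resting T cells, bound to inhibitors of the I kappa B family. Signals from the TCR pass through PKC theta and the adaptors BCL10 and MALT1 to the I kappa B kinase (IKK), which marks the inhibitors for destruction, so that the dimers enter the nucleus and switch on cytokine, survival and feedback genes. Several of the subunit and inhibitor genes are themselves NF-kappa B targets, which makes the pathway a textbook case of both positive feedback (new subunits) and negative feedback (new I kappa B alpha and A20).

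The bases before the annotated starts of the genes are shown because NF-kappa B sites there are the basis of this feedback. RefSeq promoter windows of 300 bases (GRCm38.p6, 250 bases before to 50 after an annotated start) were held for 7 of the 10 genes, in 12 windows. Relb, Nfkb1 and Nfkbiz are named only. The NF-kappa B consensus motif of 10 bases was searched on both strands, and overlapping matches were counted at each position. Of the 7 genes, 6 had a match in at least 1 window, against 9.55% of 27025 genes with windows, and 8 of the 12 windows had one, against 8.46% of 32851. Nfkbib had none, which says only that these letters are not in this window. The stretches are written 5′ to 3′ on the strand of the gene, and capitals mark the letters that match the motif on either strand.
Nfkb2 (chr19:46304648-46304736, plus strand): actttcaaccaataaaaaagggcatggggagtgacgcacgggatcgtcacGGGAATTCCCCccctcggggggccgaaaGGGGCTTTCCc
Rel (chr11:23771002-23771111, minus strand): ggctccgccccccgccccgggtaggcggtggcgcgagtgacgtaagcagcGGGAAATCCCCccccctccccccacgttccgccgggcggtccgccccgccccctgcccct
Nfkbia (chr12:55492648-55492726, minus strand): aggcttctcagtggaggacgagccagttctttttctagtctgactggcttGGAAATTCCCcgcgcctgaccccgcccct
Nfkbid (chr7:30422175-30422284, plus strand): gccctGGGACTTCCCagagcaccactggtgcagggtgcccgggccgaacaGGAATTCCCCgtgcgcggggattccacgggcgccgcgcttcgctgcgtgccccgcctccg
Nfkbie (chr17:45555544-45555653, plus strand): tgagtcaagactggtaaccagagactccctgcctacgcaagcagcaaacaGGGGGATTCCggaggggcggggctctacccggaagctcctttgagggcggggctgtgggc
Tnfaip3 (chr10:19015411-19015472, minus strand): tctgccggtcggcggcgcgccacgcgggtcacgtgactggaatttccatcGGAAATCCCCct
In Nfkb2 and Rel the longest run of capitals holds 2 overlapping matches. All 3 windows of Nfkb2 had a match, against 1 of 3 for Nfkbid and 1 of 2 for Tnfaip3. A match is a description of letters and no evidence of binding in these cells.

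All arrays carried the same scale, since the mean over probe sets, once 2% were trimmed from either end, was 500.0 on each, and the array medians ran from 61.8 to 74.2. The siRNA target Gata3 read 2853 with GATA3 siRNA, against 9261 with control siRNA, in stimulated Th2-4th cells, and 1798 against 4883 in stimulated Th2-1st cells, so part of its signal remained in both. The 8 measured T cell identity genes, of 10 listed, were above the array median on all 6 arrays. The 5 measured B cell genes summed to between 159 and 273 over the arrays, with 0 to 2 of them above the array median. Cd79a, a chain of the B cell receptor, and Pax5 were below the median on all arrays, while Blk was above it on 4 arrays, Ms4a1 on 2 and Cd79b on 1. The 7 myeloid and dendritic cell genes summed to between 384 and 628, with 2 or 3 of them above the median. Itgam, Itgax and Lyz2 were below the median on all arrays, Cd68 was above it on all 6 (67.6 to 234, with a log2 ratio of Th2-4th to Th2-1st control cells of 1.07 stimulated and 1.30 unstimulated), Adgre1 on 5, Csf1r on 4 and Cd14 on 1. The 5 measured CD8 T and NK cell genes summed to between 1798 and 2355 in Th2-4th cells and between 657 and 1265 in Th2-1st cells. Klrd1, an NK cell receptor gene, read 832 to 1608 in Th2-4th and 86.2 to 134 in Th2-1st cells, and the other 4 genes summed to overlapping ranges of 325 to 1076 and 523 to 1132. Cd8b1 ran the other way, with log2 ratios of Th2-4th to Th2-1st control cells of -0.94 stimulated and -1.63 unstimulated. The part of these marker genes in the results was not tested. The ratio of 3′ to 5′ signal of the beta-actin control, a measure of RNA integrity, was between 1.32 and 1.37 in Th2-4th cells, and 1.23 in stimulated and 1.02 in unstimulated Th2-1st control cells. The part of this ratio in the results was not tested. In these bulk samples, a lower signal from fewer expressing cells and one from less RNA per cell cannot be told apart.

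All 9 measured genes rose more than 2-fold after anti-TCR stimulation of control cells, in Th2-4th as in Th2-1st cells. Of all 18194 genes, 18.7% were over 2-fold in Th2-4th cells, 17.5% in Th2-1st cells and 8.00% in both, and these shares were 14.6%, 10.7% and 7.39% among genes whose higher signal exceeded the array median. No member was under 0.5-fold, where 21.6% of all genes were in Th2-4th and 16.9% in Th2-1st cells (21.0% and 16.7% above the median). The median log2 ratio of the 9 genes was 2.19 in Th2-4th and 2.53 in Th2-1st cells, against medians of -0.10 and -0.01 over all genes. By single probe sets, 19 of 19 were over 2-fold in Th2-4th cells and 18 of 19 in Th2-1st cells. In counts, each gene was represented by its brightest probe set over the 6 arrays (mean log2 signal). The spread given beside a ratio is a robust SD of the log2 ratio among the 501 genes of nearest signal, which includes real changes and is no replicate error. Signals of different probe sets are on scales of their own and were not compared with each other.

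**Figure D1:**
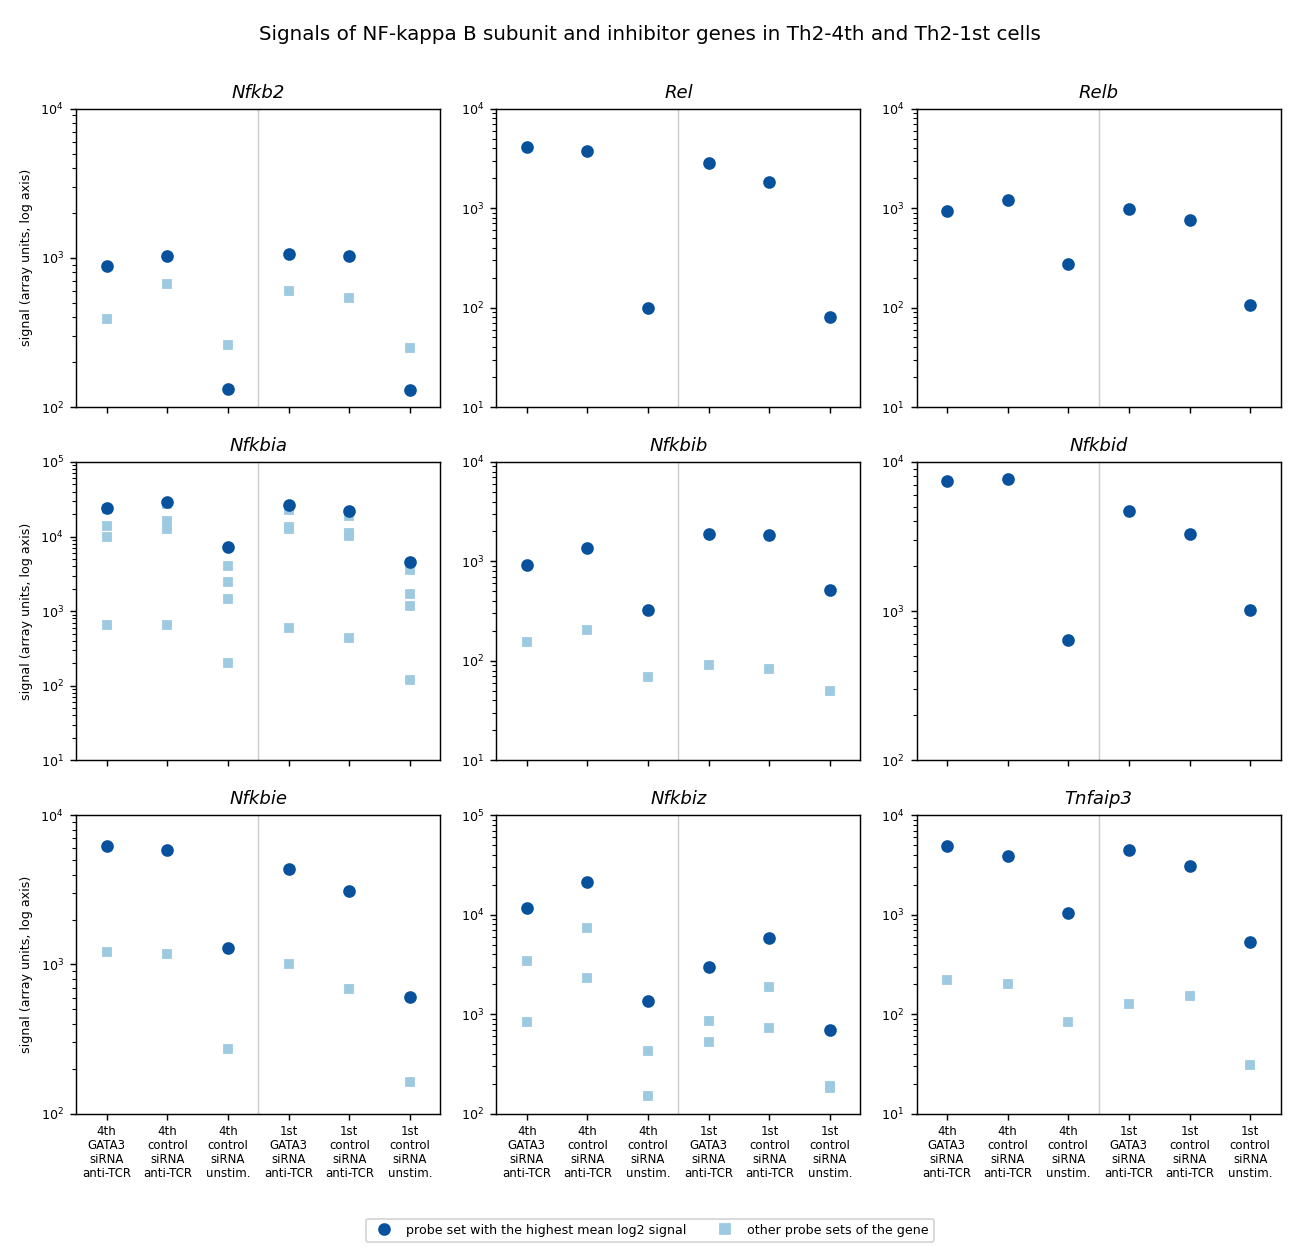
Array signal (vertical axes, log scale, a separate range for each gene) of the 9 measured genes on the 6 arrays, with Th2-4th arrays left and Th2-1st arrays right of the grey line. Dark circles are the probe set that stood for the gene and light squares its other probe sets, and for every gene the unstimulated array is the lowest of its culture, as for Rel at 98.2 and 80.9.

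Rel, the subunit c-Rel that activated T cells need for IL-2 and for division, had the highest stimulation ratio of the group. It read 4091 with GATA3 siRNA, 3714 with control siRNA and 98.2 without stimulation in Th2-4th cells. The same probe set read 2868 with GATA3 siRNA, 1829 with control siRNA and 80.9 without stimulation in Th2-1st cells. Both unstimulated arrays were thus close to the array medians, and all 4 stimulated arrays were far above them. The log2 ratio of stimulated to unstimulated control cells was 5.24 in Th2-4th cells (spread 0.92) and 4.50 in Th2-1st cells (spread 0.82). In the order of stimulation ratios, Rel stood at place 81 of 11186 and at place 96 of 11022 genes that exceeded the array median.

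Nfkb2 encodes the precursor that is processed in the non-canonical pathway, downstream of receptors such as the lymphotoxin beta receptor. Its main probe set read 879 with GATA3 siRNA, 1036 with control siRNA and 132 without stimulation in Th2-4th cells, and 1053, 1035 and 131 in the same order in Th2-1st cells. Control cells of both cultures thus gave nearly the same values in each state. The log2 stimulation ratios were 2.97 and 2.98 in Th2-4th and Th2-1st cells. A further probe set, whose ID marks it as able to bind related transcripts, gave smaller ratios of 1.37 and 1.10.

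Relb, the partner of the processed NFKB2 protein, read 935 with GATA3 siRNA, 1202 with control siRNA and 272 without stimulation in Th2-4th cells. In Th2-1st cells it read 980.1, 755 and 107 in the same order. The unstimulated Th2-1st array was the lowest of the 6, and the stimulated Th2-4th control array the highest. The log2 stimulation ratio was 2.15 in Th2-4th cells and 2.82 in Th2-1st cells (spread 0.99 and 0.90), so the difference of -0.68 between the cultures lay close to the spread of such differences, 0.59.

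Nfkbia encodes I kappa B alpha, the inhibitor that is destroyed first and made anew within the same response. Its brightest probe set read 24216 with GATA3 siRNA, 29121 with control siRNA and 7174 without stimulation in Th2-4th cells, and 26299.7, 22219 and 4575 in Th2-1st cells. These stimulated signals came within 2.09-fold of the brightest probe set of each array. All 5 probe sets of the gene were over 2-fold in both cultures, with log2 ratios from 1.66 to 3.12 in Th2-4th and from 1.88 to 3.13 in Th2-1st cells. The probe sets of 1 gene thus differed by more than the cultures did. Nfkbie, which encodes the related inhibitor I kappa B epsilon, read 6215 with GATA3 siRNA, 5833 with control siRNA and 1281 without stimulation in Th2-4th cells, and 4367, 3100.2 and 608 in Th2-1st cells. Its log2 stimulation ratios were 2.19 and 2.35 by this probe set and 2.10 and 2.07 by the second one. Nfkbib encodes I kappa B beta. It read 929.8, 1364 and 326 in Th2-4th cells and 1872, 1848 and 521 in Th2-1st cells, in the same order of arrays. Its log2 stimulation ratios were 2.07 and 1.83, and those of its second and dimmer probe set were 1.56 in Th2-4th and 0.72 in Th2-1st cells. The value of 0.72 was the single one of the 19 probe sets short of 2-fold.

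Nfkbid and Nfkbiz encode the atypical inhibitors I kappa B NS and I kappa B zeta, which act in the nucleus on promoter-bound NF-kappa B and can both repress and activate genes. Nfkbid read 7431 with GATA3 siRNA, 7627 with control siRNA and 641 without stimulation in Th2-4th cells. In Th2-1st cells it read 4725, 3273 and 1021 in the same order. Th2-4th cells thus had the lower signal at rest and the higher signal after stimulation. The log2 stimulation ratio was 3.57 in Th2-4th cells and 1.68 in Th2-1st cells, a difference of 1.89, where such differences had a like-signal spread of 0.47. This difference stood at place 150 of 10429 genes above the array median in both pairs. Over all genes, 15.3% had a difference above 1 and 17.6% one below -1, and among the 9 genes Nfkbid alone did by the probe set that stood for the gene. Nfkbid has a single probe set, so no second reading was at hand.

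Nfkbiz read 11666 with GATA3 siRNA, 21121 with control siRNA and 1350.3 without stimulation in Th2-4th cells, and 2949.6, 5858 and 691 in Th2-1st cells. The stimulated Th2-4th control array was the highest of the 6 for all 3 of its probe sets. The log2 stimulation ratios were 3.97 in Th2-4th and 3.08 in Th2-1st cells (spread 0.86 and 0.71). The other probe sets read 4.12 and 3.91 in Th2-4th cells and 3.31 and 1.99 in Th2-1st cells, so that the larger response of Th2-4th cells was seen with each, at a difference of 0.81 to 1.92.

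Tnfaip3 encodes A20, the ubiquitin-editing enzyme that shuts off signals to IKK. Its main probe set read 4953 with GATA3 siRNA, 3927 with control siRNA and 1052 without stimulation in Th2-4th cells. In Th2-1st cells it read 4498, 3071 and 531. The GATA3 siRNA array was the highest of its culture in both. The log2 stimulation ratio was 1.90 in Th2-4th cells and 2.53 in Th2-1st cells, and a second, dim probe set gave 1.27 and 2.31. The response was thus larger in Th2-1st cells by both, by 0.63 and 1.04.

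**Figure D2:**
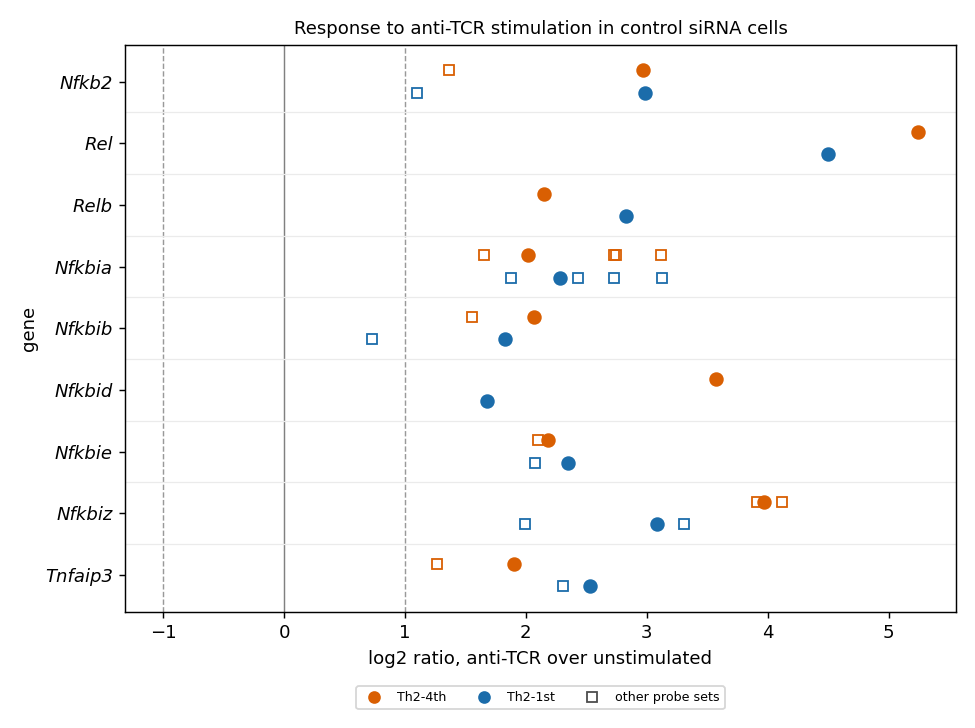
Log2 ratio of stimulated over unstimulated control siRNA cells (horizontal axis) for each measured gene (rows), with Th2-4th cells in orange above Th2-1st cells in blue. Filled circles are the probe set that stood for the gene, open squares the other probe sets and dashed lines 2-fold, and Nfkbid shows the widest gap between filled circles of the cultures, 3.57 against 1.68.

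Th2-4th control cells had higher signals of most of these genes than Th2-1st control cells. In stimulated cells 8 of 9 ratios were positive and 3 were over 2-fold, where 17.2% of all genes were over 2-fold (11.4% above the array median). They were Nfkbiz with a log2 ratio of 1.85 (spread 0.48), Nfkbid with 1.22 (spread 0.51) and Rel with 1.02 (spread 0.53). In unstimulated cells 7 of 9 ratios were positive and 2 were over 2-fold, against 19.5% of all genes (11.9% above the median), namely Relb with 1.35 (spread 0.74) and Nfkbie with 1.07 (spread 0.70). None was under 0.5-fold, where 12.7% of all genes were in stimulated and 12.3% in unstimulated cells (7.93% and 9.22% above the median). Tnfaip3 stood at 0.98 and Nfkbiz at 0.97 in unstimulated cells, just short of 2-fold. There the dim second probe set of Tnfaip3 gave 1.46, past 2-fold, and the second one of Nfkbie gave 0.74, short of it. The other probe sets of Nfkbiz gave 1.16 and -0.26, so the direction of Nfkbiz in unstimulated cells is not settled. Nfkb2 stood apart, with 0.00 in stimulated and 0.02 in unstimulated cells, and turned negative under 2 of 6 alternatives in each. The share of all genes with a positive ratio was not computed. Nfkbib had negative ratios of -0.44 and -0.68 by its main probe set and positive ones of 1.32 and 0.48 by the dimmer one, so it has no settled direction. The medians of the 9 genes, 0.67 in stimulated and 0.65 in unstimulated cells, stood beside medians of 0.10 and 0.17 over all genes. Those of the 8 T cell identity genes were 0.74 and 0.85, and those of the 8 reference genes -0.01 and 0.16. A list of stress and unfolded protein response genes stood at 0.68 in stimulated and -0.27 in unstimulated cells. Centring of each array on its median would take 0.24 and 0.16 off these ratios. With that centring Rel stood at 0.78 and Nfkbid at 0.98, short of 2-fold, which left Nfkbiz over 2-fold in stimulated cells, and Nfkbie stood at 0.91, which left Relb in unstimulated cells. These ratios share their arrays with the stimulation ratios, so they are not independent of them.

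**Figure D3:**
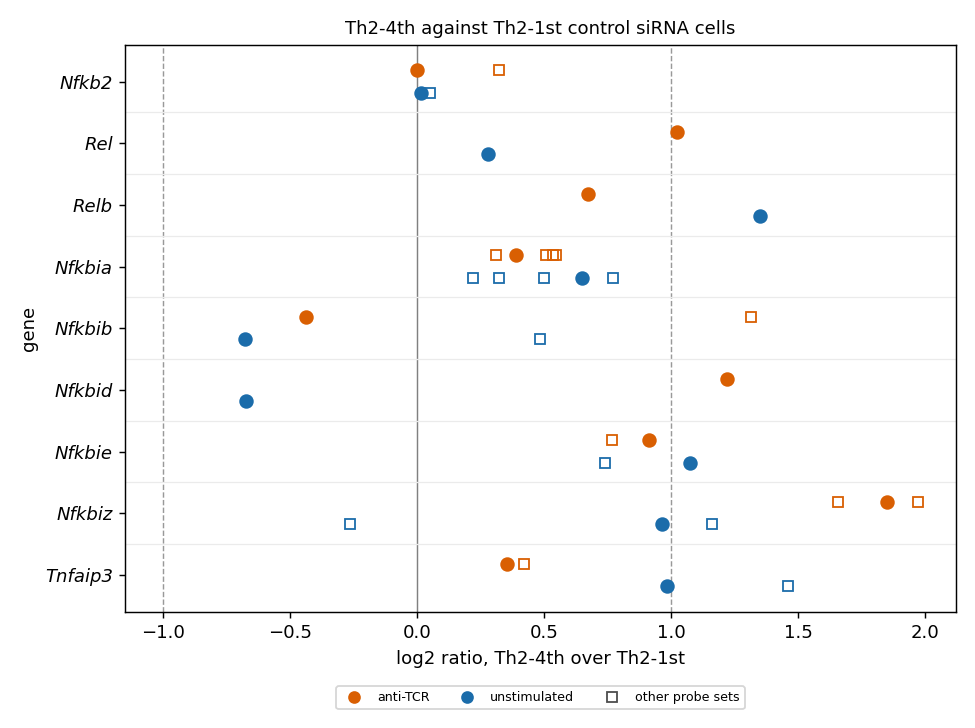
Log2 ratio of Th2-4th over Th2-1st control siRNA cells (horizontal axis) for each measured gene (rows), with stimulated cells in orange above unstimulated cells in blue. Filled circles are the probe set that stood for the gene, open squares the other probe sets and dashed lines 2-fold, and Nfkbiz lies farthest to the right in stimulated cells, at 1.85 by the filled circle and 1.97 by an open square, while Nfkbid changes side between the states.

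With GATA3 siRNA, no member passed 2-fold in either direction by the probe set that stood for it. In stimulated Th2-4th cells 10.6% of all genes were over 2-fold and 10.6% under 0.5-fold, and in stimulated Th2-1st cells 13.3% and 7.49%. Among genes that exceeded the array median these shares were 3.00% and 3.49% in Th2-4th and 4.41% and 2.26% in Th2-1st cells. Apart from Nfkbiz, the genes leaned to higher signals in Th2-1st cells and were mixed in Th2-4th cells. In Th2-4th cells 3 of 9 ratios were positive and the median was -0.24, beside 0.01 over all genes and -0.13 over 8 reference genes. In Th2-1st cells 8 of 9 were positive, or 6 of 9 with centred arrays. With that centring Nfkb2 and Nfkbib, both at 0.02 on the deposited scale, turned negative. The median in Th2-1st cells was 0.38, beside 0.05 over all genes and -0.00 over the reference genes. The T cell identity genes had medians of 0.04 in Th2-4th and 0.22 in Th2-1st cells, and a textbook list of NF-kappa B targets -0.18 and 0.25. The share of all genes with each sign was not computed. The knockdown ratio was lower in Th2-4th than in Th2-1st cells for 8 of the 9 genes, with a median difference of -0.51 (-0.34 with centred arrays), beside -0.05 over all genes. The share of all genes with a lower knockdown ratio in Th2-4th cells was not computed either, so the count of 8 has no background beside it. None of these 9 differences was beyond 1 in size, where 17.5% of all genes had a difference below -1 and 11.9% one above 1. The knockdown ratios of the cultures share no array, but each shares its control array with the stimulation ratio of that culture.

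Among the subunits, the log2 ratio of GATA3 to control siRNA was 0.14 in Th2-4th and 0.65 in Th2-1st cells for Rel, with spreads of 0.20 and 0.16. It was -0.36 and 0.38 for Relb (spread 0.29 and 0.19) and -0.24 and 0.02 for Nfkb2 (spread 0.28 and 0.22). Rel in Th2-1st cells was thus well outside its spread, while Nfkb2 lay within it in both cultures by its main probe set, though its second one stood at -0.77 in Th2-4th cells (spread 0.31). All 5 probe sets of Nfkbia had positive ratios in Th2-1st cells, from 0.24 to 0.44, and 4 of 5 had negative ones in Th2-4th cells, in a range of -0.35 to 0.04. Nfkbib stood at -0.55 in Th2-4th and 0.02 in Th2-1st cells, and Nfkbid at -0.04 and 0.53. Nfkbie stood at 0.09 and 0.49, and Tnfaip3 at 0.34 and 0.55. Tnfaip3 was thus positive in both cultures by its main probe set, while its dim probe set gave 0.13 and -0.27.

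On the deposited scale Nfkbiz was the exception, as the single member with a negative knockdown ratio in both cultures by all of its probe sets. With centred arrays the main probe sets of Nfkb2 and Nfkbib were negative in both cultures too. They then stood at -0.22 and -0.54 in Th2-4th cells and at -0.13 and -0.14 in Th2-1st cells. The main probe set of Nfkbiz read 11666 with GATA3 siRNA against 21121 with control siRNA in Th2-4th cells, and 2949.6 against 5858 in Th2-1st cells. The second probe set read 3457 against 7340.4 and 862 against 1872, and the third 835 against 2287 and 524 against 724. In all 6 pairs the GATA3 siRNA array was thus the lower one. The log2 ratios were -0.86, -1.09 and -1.45 in Th2-4th cells and -0.99, -1.12 and -0.47 in Th2-1st cells, so 2 of 3 probe sets were under 0.5-fold in Th2-4th cells and 1 of 3 in Th2-1st cells. For the main probe set the spread among genes of like signal was 0.17 and 0.15. It stood at place 515 of 11045 and at place 252 of 10981 when genes above the array median were ordered from the lowest ratio. The gene stayed induced with GATA3 siRNA, at 8.64-fold over unstimulated control cells in Th2-4th and 4.27-fold in Th2-1st cells. The call at 2-fold depends on the choice of probe set and on the scaling, as centring of the arrays put Nfkbiz at -1.15 in Th2-1st cells and the mean over its probe sets put it at -1.13 in Th2-4th cells. Other alternatives made the ratio of Nfkbiz smaller in size. Quantile normalization put it at -0.67 in Th2-4th and -0.93 in Th2-1st cells, and the mean over its probe sets at -0.86 in Th2-1st cells. A single GATA3 siRNA was used, so loss of GATA3 and other effects of that siRNA cannot be told apart.

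**Figure D4:**
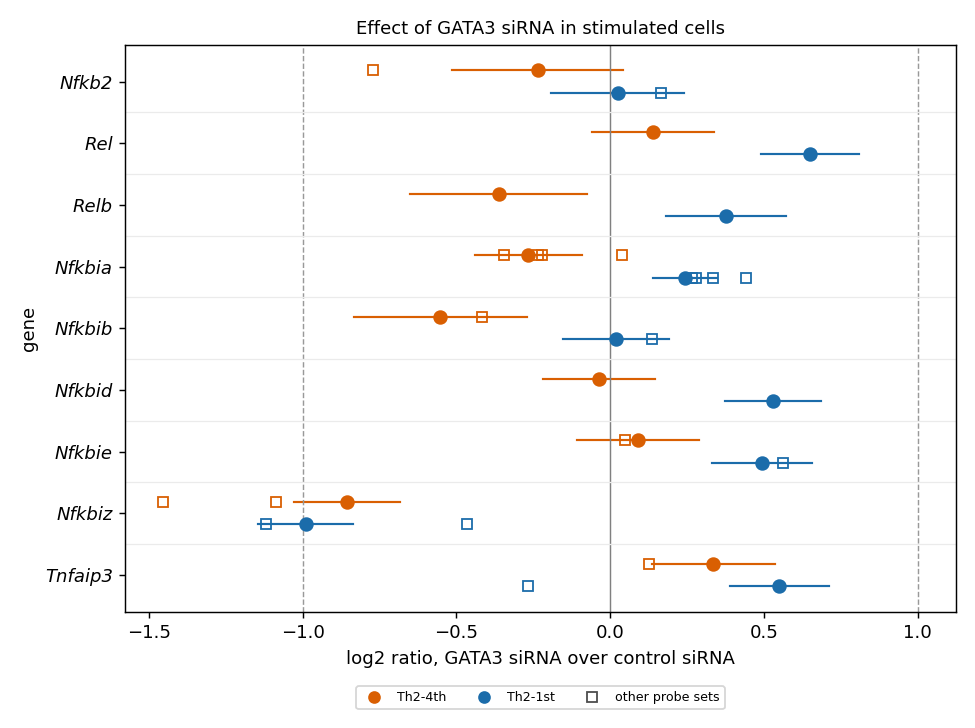
Log2 ratio of GATA3 siRNA over control siRNA in stimulated cells (horizontal axis) for each measured gene (rows), with Th2-4th cells in orange above Th2-1st cells in blue. Filled circles are the probe set that stood for the gene, with lines of 1 like-signal spread to each side, open squares are other probe sets and dashed lines mark 2-fold, and only the Nfkbiz row has all its points left of 0 in both cultures, the lowest at -1.45.

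The other genes of the pathway moved less uniformly with stimulation. Of all genes, 18.7% were over 2-fold and 21.6% under 0.5-fold in Th2-4th cells, and 17.5% and 16.9% in Th2-1st cells. Of 7 other subunit and I kappa B family genes, 3 were over 2-fold and none under 0.5-fold in each culture. Rela, the main activating partner, read 4232 with GATA3 siRNA, 4766 with control siRNA and 2098 without stimulation in Th2-4th cells and 4526, 4569.6 and 2242 in Th2-1st cells, a log2 stimulation ratio of 1.18 and 1.03. Rela thus rose close to 2-fold, below each of the 9 measured members by this ratio. Bcl3, a nuclear I kappa B protein that binds homodimers of the processed subunits, had stimulation ratios of 2.91 and 1.89 and knockdown ratios of -0.12 and -0.05. The NF-kappa B repressing factor gene Nkrf stood at 2.40 and 0.85, but a second probe set gave -3.61 in Th2-4th cells. Nkiras1, which encodes a Ras-like protein that binds I kappa B beta, stood at 0.19 and 1.05.

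Of 10 measured kinase genes upstream of the inhibitors, 1 was over 2-fold and 1 under 0.5-fold in each culture. All 10 exceeded the array median. Among such genes 14.6% were over 2-fold and 21.0% under 0.5-fold in Th2-4th cells, and 10.7% and 16.7% in Th2-1st cells. With so few kinase genes, these counts cannot be told apart from those shares. Map3k8, the kinase TPL-2 that is held by the NFKB1 precursor, read 4449 in stimulated and 735 in unstimulated Th2-4th control cells and 943 and 406 in Th2-1st cells. Ikbke, an IKK-related kinase, was lower after stimulation, at -1.62 and -1.76. By the probe set that stood for each gene, Ikbke was the single kinase gene past 2-fold with GATA3 siRNA, at 1.02 in Th2-1st cells. Centring of the arrays would take 0.16 off this ratio, which leaves it short of 2-fold. Further probe sets of other kinase genes also passed 2-fold, from -2.29 to 1.28 in Th2-1st cells and up to 4.77 in Th2-4th cells. Among the 7 measured adaptor genes between the TCR and IKK, Bcl10 stood at 1.24 and 1.13, Malt1 at 0.98 and 1.55 and Prkcq, which encodes PKC theta, at -1.78 and -0.92 in Th2-4th and Th2-1st cells. Bcl10 and Malt1 thus had positive ratios and Prkcq negative ones, and the lowest of the 4 probe sets of Bcl10 stood at 0.83 and 0.65, short of 2-fold.

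Of 8 measured TRAF and IAP genes, 3 were over 2-fold and 1 under 0.5-fold in Th2-4th cells (all genes 18.7% and 21.6%). In Th2-1st cells 2 were over 2-fold and none under 0.5-fold (all genes 17.5% and 16.9%). Traf1, an NF-kappa B target and a brake on TNF receptor signals, stood at 0.77 and 1.38, and Birc2, which encodes the ubiquitin ligase cIAP1, at -1.34 and -0.72. Traf5 stood at 2.46 and 0.27 with stimulation and at 0.89 and 1.07 with GATA3 siRNA, but its second probe set gave 0.55 and 0.78 with stimulation and 0.61 and -0.31 with GATA3 siRNA, none past 2-fold. Traf4 had signals of 32.9 to 168 near the array medians, with a stimulation ratio of 1.98 in Th2-4th cells that its second probe set put at 0.20, and a knockdown ratio of -1.49 there that the second one put at -0.44. Of 10 measured genes of ubiquitin feedback, which work beside A20, 2 were over 2-fold in each culture, close to the 18.7% and 17.5% over all genes. The A20 partner gene Rnf11 stood at 1.11 and 1.38, Tax1bp1, another partner, at 0.73 and 1.15, and Tnip2, whose protein binds A20, at 1.12 in Th2-4th cells and just short of 2-fold in Th2-1st cells. Over the 4 probe sets of Rnf11 and of Tax1bp1 the lowest ratios in Th2-1st cells were 0.10 and 0.32, so both 2-fold calls there depend on the probe set. Cyld, a deubiquitinase that restrains the pathway in resting cells, stood at -1.31 and -0.97. None of these 10 genes passed 2-fold with GATA3 siRNA in either culture by the main probe set.

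Of 26 measured genes of a textbook list of NF-kappa B targets, 19 were over 2-fold and 1 under 0.5-fold after stimulation in Th2-4th cells, and 17 and 1 in Th2-1st cells, with medians of 2.35 and 2.40. Over all genes, 18.7% and 17.5% were over 2-fold and 21.6% and 16.9% under 0.5-fold in the 2 cultures. The target gene under 0.5-fold was in both cultures Ltb, lymphotoxin beta, at -1.82 and -1.58, named here after its values were seen. Il2, the T cell growth factor gene and a target of c-Rel, read 21675 in stimulated and 11.3 in unstimulated Th2-4th control cells and 16666 and 4.28 in Th2-1st cells, the unstimulated values far below the array medians. Tnf read 17525 and 18.2 in Th2-4th and 3803 and 90.3 in Th2-1st cells, and the dendritic and activated T cell marker gene Cd83 1394 and 10.8 in Th2-4th and 1131 and 27.1 in Th2-1st cells. With GATA3 siRNA, 1 target gene was over 2-fold and 3 under 0.5-fold in Th2-4th cells, and 5 and 1 in Th2-1st cells. Over all genes these shares were 10.6% and 10.6% in Th2-4th and 13.3% and 7.49% in Th2-1st cells. Beside Il6 and Lta, the target genes past 2-fold were Vcam1 and Ccl20, both under 0.5-fold in Th2-4th cells, and Tnf, Ltb, Cxcl10 and Ccl20, all over 2-fold in Th2-1st cells. The Th2-4th ratio of Ccl20 was -1.01, hardly past the limit. Of the target genes, Vcam1, Ccl20, Ltb, Cxcl10 and Lta are named after their values were seen. Vcam1 has no settled direction, since its 3 probe sets ran from -3.43 to 2.91 and its main one read 28.9 with GATA3 siRNA and 96.6 with control siRNA, around the array medians. Low signals also lie behind 2 of the ratios in Th2-1st cells. Ccl20 read 134 with GATA3 siRNA and 33.9 with control siRNA there, the latter below the array median, and Cxcl10 read 250 and 106. By qRT-PCR the paper reports a weak effect of the knockdown on Ccl20. With the same method it reports higher Tnf, Ltb, Cxcl10 and Lta and lower Il6. There Lta passed the 3.16-fold limit in Th2-1st cells and Il6 passed it in both cultures. Il6, whose induction in mouse macrophages needs I kappa B zeta, read 6104 with GATA3 siRNA, against 45438 with control siRNA, in Th2-4th cells and 863 against 10942 in Th2-1st cells. It was the single target gene under 0.5-fold in both cultures, at -2.90 and -3.66, and Lta the single one over 2-fold in both, at 1.44 and 1.97.

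**Figure D5:**
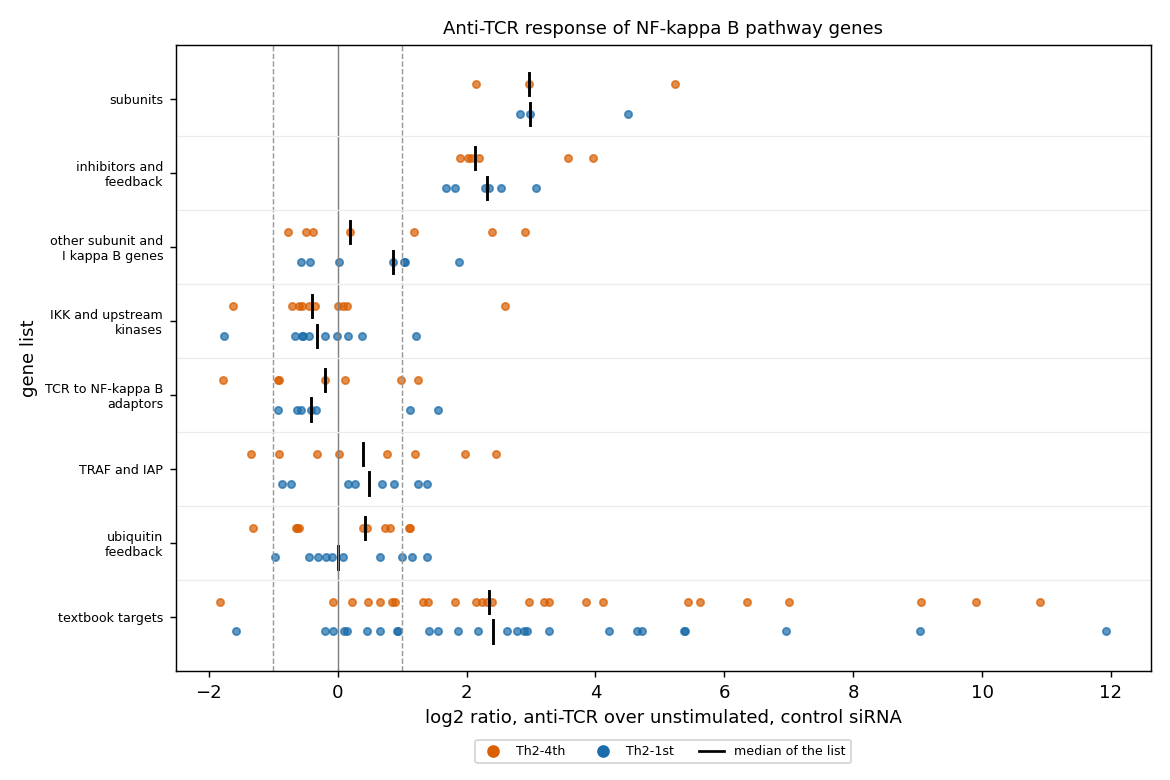
Log2 ratio of stimulated over unstimulated control siRNA cells (horizontal axis) for the measured genes of 8 lists (rows), 1 point per gene, with Th2-4th cells in orange above Th2-1st cells in blue. Black ticks are list medians and dashed lines 2-fold, and all points of the upper 2 rows, the subunits and the inhibitor and feedback genes, lie right of the 2-fold line, with medians of 2.97 and 2.13 in Th2-4th cells.

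For each member the gene with the most similar profile was sought, as the smallest Euclidean distance between log2 signals after each gene's own mean over the 6 arrays was taken off, among 8852 genes above the array median on all arrays. Nfkbid lay nearest to Nab2, a co-repressor of EGR factors, at a distance of 0.23, where the distance of Nfkbid from a flat profile was 3.37. Nab2 had the same larger response in Th2-4th cells, with log2 stimulation ratios of 3.63 and 1.47. Nfkbie and Tnfaip3 shared Bhlhe40, a helix-loop-helix repressor, as their nearest gene, at 0.26 and 0.44. Nfkb2 lay nearest to Tnfrsf4, the costimulatory receptor OX40, at 0.45, and Rel to Phlda1 at 0.57. Nfkbia lay nearest to the kinase gene Map2k3 at 0.46, Relb to Smim3 at 0.30 and Nfkbib to Ntmt1, an N-terminal methyltransferase gene, at 0.21. Nfkbiz had the least close neighbour of the 9 genes, Pmepa1, a regulator of TGF-beta signals, at 0.99. Pmepa1 read 4231 with GATA3 siRNA, 7008 with control siRNA and 644 without stimulation in Th2-4th cells and 1500.1, 2624 and 549 in Th2-1st cells, and so was lower with GATA3 siRNA in both cultures as well, at -0.73 and -0.81. These profiles rest on 6 arrays and are a description of them. The nearest genes were chosen by these same signals, so the shared responses of Nab2 and Pmepa1 are built into the choice.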

How the data were processed

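RNA of the 6 samples was labelled with a 3′ kit and hybridized to Affymetrix whole-genome mouse arrays. The values the authors deposited are linear signal intensities, 1 for each probe set. The submitters' processing notes name the Affymetrix Expression Console, with no version, and the sources used here state no summary algorithm or background step. Of 45101 probe sets, 34958 carried a single gene name in the annotation of the platform, 932 several and 9211 none, and 34754 of the first (99.4%) matched a RefSeq gene (GRCm38.p6) for current symbols. Ratios of array pairs were taken on the log2 scale over all 18194 genes with no filter on low signals. A ratio over 2 or under 0.5 counted as a change, the limits used in the paper. The precision is limited by the 1 array of each condition, and no depth or detection call was at hand. The counting and spread steps were tested on simulated data. Python 3.11.15, numpy 2.4.6, pandas 2.3.3 and matplotlib 3.10.9 were used.

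The members and gene lists were chosen with earlier results of these data known. Named in the text are every member, from each other pathway list up to 4 genes past 2-fold with a signal above the array median (by the largest ratio), Rela, Bcl3 and Gata3, and each member's nearest gene. Outside this rule, marker genes and the target genes Vcam1, Ccl20, Ltb, Cxcl10 and Lta are named. Chuk, Ripk1, Traf3, Tnip3, Bcl2a1d and Ripk2 were on no probe set of their own in the annotation and were left out, and 1 further listed item is not reported here. A list of stress and unfolded protein response genes had a median log2 stimulation ratio of 1.93 in Th2-4th and 0.72 in Th2-1st cells, and a list of Th2 genes a median knockdown ratio of -1.33 and -1.44. Alternatives tried were averaging a gene's probe sets, taking the one of largest ratio, dropping cross-hybridising ones, centring or quantile normalization, raising or leaving out low signals, and a 3.16-fold limit.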

Additional observations from a re-analysis of the deposited data

Results flagged for a closer look

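For 5 genes the ratio of GATA3 to control siRNA had opposite signs in the 2 cultures, and the difference was not tested, since each culture has 1 array per condition. The log2 difference of Th2-4th minus Th2-1st cells was -0.74 for Relb and -0.51 for Nfkbia, where both ratios lay beyond the spread of genes of like signal on the deposited scale. For Nfkbia this did not hold with centred arrays (0.09 in Th2-1st cells, spread 0.10) or with quantile normalization (-0.10 in Th2-4th cells, spread 0.17). It was -0.57 for Nfkbid, -0.57 for Nfkbib and -0.26 for Nfkb2, where at least 1 of the ratios lay within that spread. With centred arrays 3 genes in place of 5 had opposite signs, as Nfkb2 and Nfkbib turned negative in Th2-1st cells. Nfkbid also had opposite signs for Th2-4th over Th2-1st control cells, positive in stimulated and negative in unstimulated cells, with a difference of 1.89, equally not tested. Both of its ratios lay beyond the like-signal spread, the unstimulated one by little (-0.67 against 0.66).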

How the results depend on the processing

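After stimulation 9 of 9 genes were over 2-fold under each of 8 alternatives in Th2-4th cells and under 7 of 8 in Th2-1st cells, where 8 were without cross-hybridising probe sets. With GATA3 siRNA, 1 gene in place of 0, Nfkbiz, was under 0.5-fold in Th2-4th cells with the mean over probe sets and when the largest ratio of a gene was taken, and in Th2-1st cells with centred arrays and, again, when the largest ratio was taken. For Th2-4th over Th2-1st cells after stimulation, 1 gene in place of 3 was over 2-fold with centred arrays and with the 3.16-fold limit, and 4 were without cross-hybridising probe sets and when the largest ratio was taken, as Nfkbib moved to 1.32 from -0.44 by its other probe set. In unstimulated cells, 1 in place of 2 was over 2-fold without cross-hybridising probe sets and with centred arrays, 4 when the largest ratio was taken and 0 with the 3.16-fold limit. Of 324 single-gene values under alternatives, 307 moved by less than the like-signal spread and 17 by more, and no ratio past 2-fold on the deposited scale with the main probe set changed sign. Many of the 307 could not move at all. Main probe sets of all 9 genes were above the array median on all 6 arrays, so raising or leaving out low signals could change no value or count. Rel, Relb and Nfkbid have 1 probe set each, so alternatives on the choice of probe set left them unchanged. No paired analysis was possible because each condition had 1 array, and for the same reason no replicate could be left out.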
